A study of Mus musculus with 9 samples.

Results

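The nuclear genes that encode the subunits of the mitochondrial respiratory chain and of ATP synthase were followed over 4 stages of the mouse mammary gland. Members were chosen by gene symbol in the platform annotation: symbols that start with Nduf, Sdha to Sdhd, Uqcr, Cox4 to Cox8 or Atp5 on a probe set with 1 gene symbol, without the Sdhaf assembly factors, Cox8b and Cox7a1. Of 8251 genes on the array with such a probe set, 69 were members, on 95 probe sets, and each was represented by the probe set with the highest mean signal over all arrays. They comprised 29 genes of complex I, 4 of complex II, 7 of complex III, 13 of complex IV, 14 of ATP synthase (complex V) and 2 assembly factors of complex I. RNA came from the whole inguinal (No4) mammary gland of C57BL/6J females, at puberty (the label Virgin; 6 weeks of age, 3 arrays), on day 14 of pregnancy (2 arrays), on day 10 of lactation (2 arrays) and on day 4 of involution after weaning (2 arrays). Each of the 9 arrays held RNA of a separate female with no transgene or treatment. Because the tissue was whole gland, fewer cells of a type and less RNA per cell cannot be told apart in any value given here.

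The respiratory chain sits in the inner mitochondrial membrane. Complex I takes electrons from NADH and complex II takes them from succinate, ubiquinone carries them to complex III, cytochrome c carries them to complex IV, and the proton gradient that results drives ATP synthase. Apart from a small number of core subunits made inside the mitochondrion, the subunits are nuclear gene products that are imported. In the lactating gland, mitochondria of the secretory cells supply ATP for milk synthesis and citrate for fatty acid synthesis.

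Promoters of many of these genes are known to hold sites for nuclear respiratory factor 1 (NRF1) and for the ETS factor GABPA. RefSeq promoter sequences (GRCm38.p6; 250 bases before to 50 after each start) were found for 56 of the 69 members, with 61 promoters. The NRF1 motif, GCGCA and GCGC with any base between them on either strand, stood in 21.3% of the members' promoters and in 6.38% of 21263 protein-coding promoters. The ETS motif CCGGAAG stood in 26.2% against 11.6%, the YY1 motif AAGATGGC in 13.1% against 3.05%, and the motif CAAGGTCA of the estrogen-related receptors in 3.28% against 1.34%. None of these 4 motifs contains another, and a match is a description of letters, not a site or a cause. Stretches of 170 bases before the start are printed for 4 members that hold matches, from the groups that were highest (Cox6a1, Cox6b1) and lowest (Sdha, Ndufa8) in lactation. Matches to the NRF1 or ETS motif on either strand are in capitals. Cox6a1 lies at chr5:115348959-115349128, Cox6b1 at chr7:30626115-30626284, Sdha at chr13:74350241-74350410 and Ndufa8 at chr2:36049339-36049508, all on the minus strand and read 5′ to 3′ toward the start.
Cox6a1: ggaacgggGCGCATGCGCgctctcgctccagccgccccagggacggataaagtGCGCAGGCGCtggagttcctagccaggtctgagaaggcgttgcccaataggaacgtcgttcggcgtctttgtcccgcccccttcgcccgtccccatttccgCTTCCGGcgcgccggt
Cox6b1: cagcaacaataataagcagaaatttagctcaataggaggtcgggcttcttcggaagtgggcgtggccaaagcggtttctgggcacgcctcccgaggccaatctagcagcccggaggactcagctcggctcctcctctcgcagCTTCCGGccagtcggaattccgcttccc
Sdha: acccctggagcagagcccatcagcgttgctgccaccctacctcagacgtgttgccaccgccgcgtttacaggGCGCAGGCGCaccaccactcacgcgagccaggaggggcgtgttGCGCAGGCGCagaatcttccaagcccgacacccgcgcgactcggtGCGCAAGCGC
Ndufa8: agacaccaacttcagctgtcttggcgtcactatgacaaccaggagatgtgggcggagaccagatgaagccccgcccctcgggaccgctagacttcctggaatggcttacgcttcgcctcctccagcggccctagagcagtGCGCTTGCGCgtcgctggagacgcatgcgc
Cox6a1 held NRF1 matches at -162 and -117 and an ETS match at -16, counted from the start to the first base of the match, and Cox6b1 held an ETS match at -28. Sdha held NRF1 matches at -98, -55 and -10, and Ndufa8 held an NRF1 match at -30. Among 13 promoters of members that were higher in lactation than in pregnancy, 6 held the ETS motif and 1 the NRF1 motif. Among 8 promoters, of 6 genes, of members that were lower, 1 held the ETS motif and 4 the NRF1 motif. These 4 were promoters of Atp5c1, Ndufa5 and Ndufa8. The windows of Ndufa5 overlap and hold the same NRF1 match, which is thus counted more than once. These counts were small and were not tested.

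Values below are scaled signals, that is, the deposited linear intensities after the arrays were set to an equal median, and they rank arrays for 1 probe set but not 1 gene against another. Changes are on the log2 scale with values under 20 set to 20, with the standard error (SE) and the Benjamini-Hochberg adjusted p of limma over the 9783 probe sets tested. Array medians lay between 48.1 and 53.8 before this scaling. In lactation the 10 brightest probe sets held 9.09% and 7.53% of all signal, and at the other stages 3.47% to 4.31%. Of the 69 members, 67 passed the filter on low signal, and Ndufc2 and Cox8a did not, with no array above 23.1.

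Respiratory chain members moved in both directions over the 4 stages. By limma's F test over the 4 stages, 27 of the 67 tested members passed, or 40.3%, where 51.6% of all probe sets tested did. Both lactation arrays lay above all 7 others for 21 members, or 31.3%, against 27.9% of all probe sets, and below all 7 for 8 members, or 11.9%, against 22%. The highest stage mean was that of lactation for 33 members (42.3% of all probe sets), of puberty for 17, of pregnancy for 9 and of involution for 8. For puberty, pregnancy and involution no share of all probe sets was computed, so those counts are not a result about the members. The lowest stage mean was also most often that of lactation, for 25 members (35.3% of all probe sets). A total of 13 members rose from pregnancy to lactation and then fell in involution (17.3% of all probe sets), and 4 fell and then rose (15.1%).

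**Figure D1:**
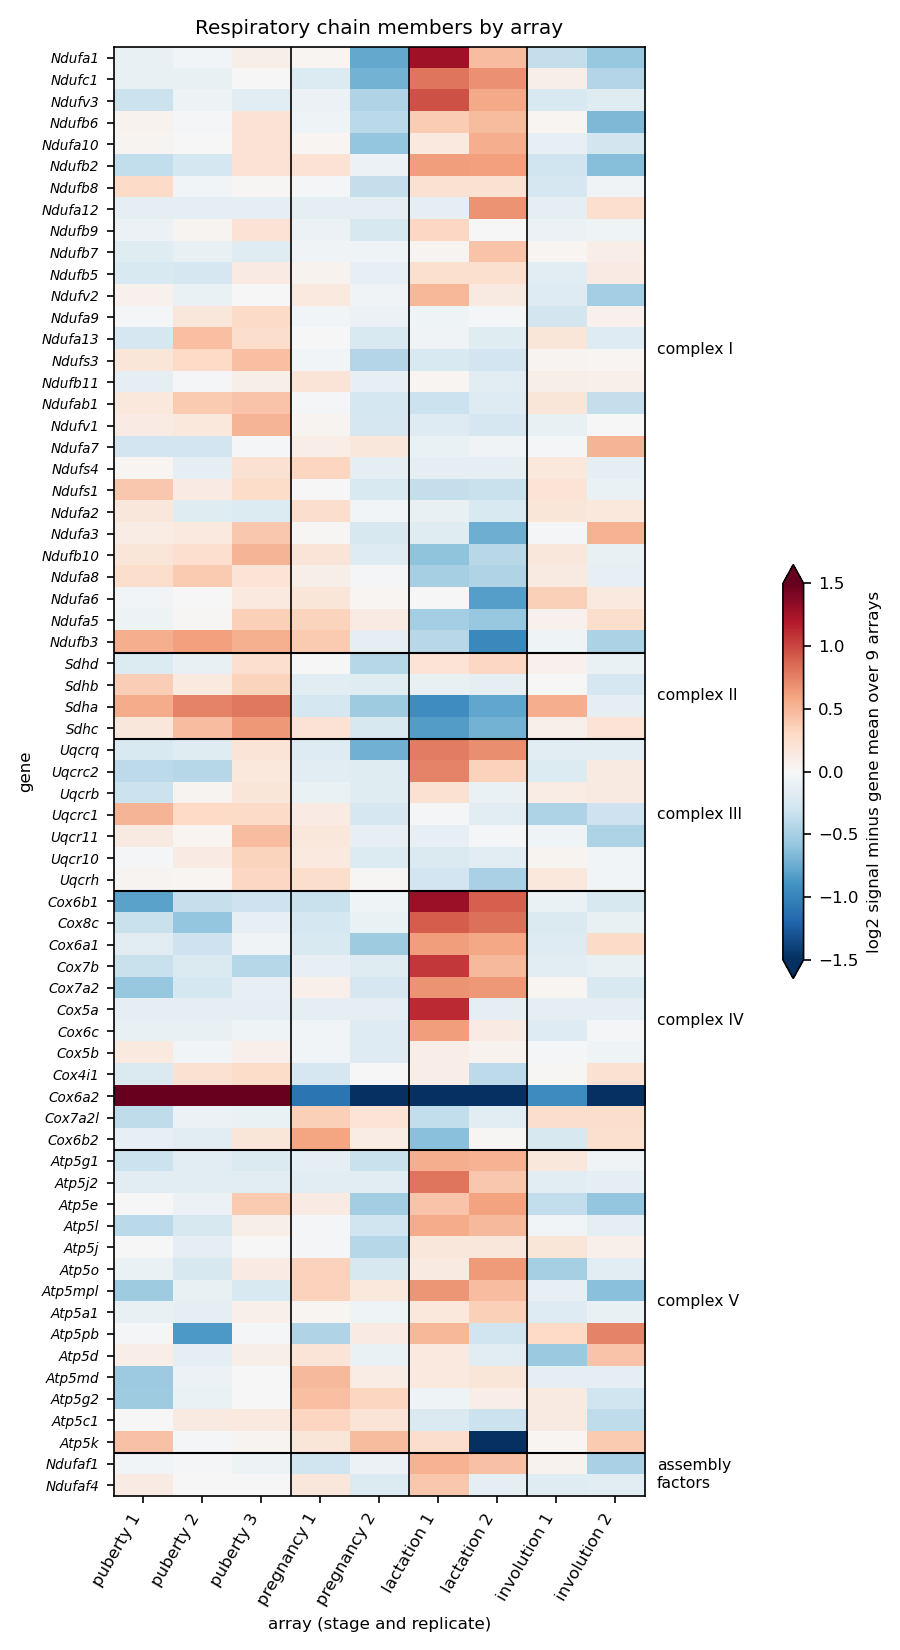
Heat map of the tested members (rows, by complex) on the 9 arrays (columns, by stage and replicate), coloured by the log2 signal minus the mean of that member over the arrays. In the lactation columns Cox6b1, Cox7b and Ndufv3 are high and Sdha, Sdhc and Ndufb3 are low, and Cox6a2 is high in the puberty columns only.

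From pregnancy to lactation the median member of complex IV and of ATP synthase was higher, that of complex II was lower, and in no complex did every tested member pass the test. The largest rises that passed were those of Cox6b1, Ndufa1, Ndufc1 and Uqcrq (1.30, 1.23, 1.20 and 1.19 on the log2 scale), and the largest falls were those of Ndufb3, Ndufa5 and Sdhc (-0.82, -0.77 and -0.76). The test called 16 members higher (21.6% of all probe sets were called higher) and 7 lower (19.7%). The members higher were 5 of the 12 tested in complex IV, 4 of 14 in ATP synthase, 4 of 28 in complex I, 2 of 7 in complex III, 0 of 4 in complex II and 1 assembly factor of 2. The members lower were 3 of complex I and 1 each of complexes II, III, IV and V. The median change was 0.56 for complex IV, 0.30 for ATP synthase, -0.01 for complex I, -0.21 for complex II and -0.03 for complex III, beside 0.19 for all members and 0.07 for all probe sets tested. Without pregnancy replicate 2 the count of members higher was 8, and without pregnancy replicate 1 the count lower was 0. The split also depended on the scaling: with quantile normalization 10 members were higher and 11 lower, and the medians were 0.14 for complex IV, 0.03 for ATP synthase and -0.08 for all members. Between the same stages the summed signal of 10 luminal and secretory markers was between 11742 and 12620 in pregnancy and between 60977 and 77688 in lactation, with 3 of 10 higher and 4 lower. The summed signal of 8 white adipocyte markers was between 12171 and 16313 in pregnancy and between 6433 and 6866 in lactation, with 5 of 8 lower. Their part in the changes of the members was not tested.

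**Figure D2:**
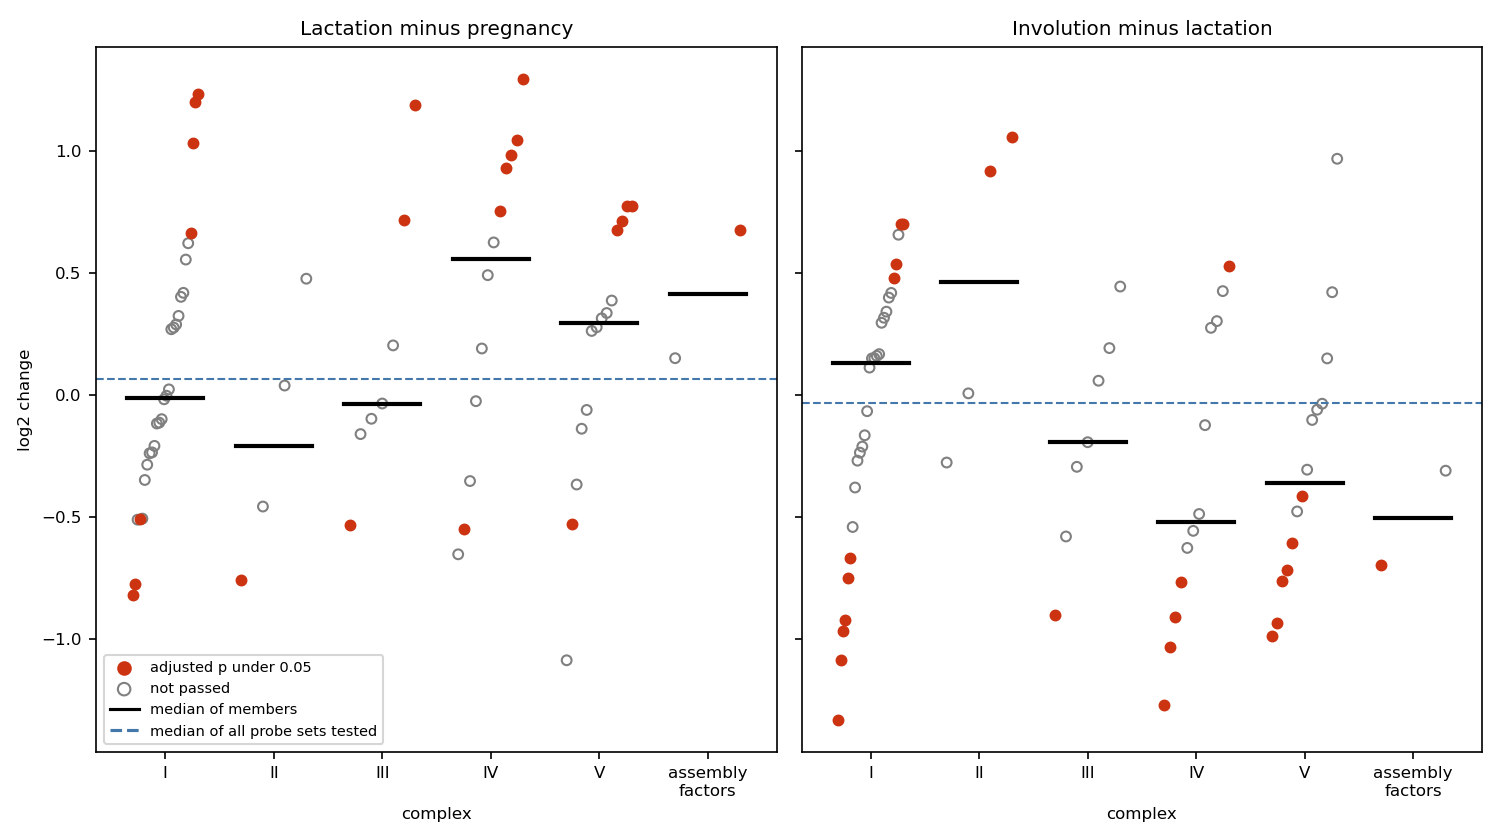
Log2 change of each tested member (points, filled where the adjusted p passed) by complex, lactation minus pregnancy on the left and involution minus lactation on the right, with the median of the complex as a bar and the median over all probe sets tested as a dashed line. On the left the medians of complexes IV and V (0.56 and 0.30) lie above the dashed line at 0.07, and on the right they lie below it (-0.52 and -0.36).

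Complex I, the NADH dehydrogenase, held members that moved in opposite directions in lactation. Ndufv3, an accessory subunit of the arm that binds NADH, gave signals of 268, 318 and 298 at puberty, 316 and 246 in pregnancy, 652 and 498 in lactation and 287 and 295 in involution. Both lactation arrays stood clear of all others, with a 2.05-fold rise over pregnancy (log2 change 1.03 ± 0.18 (SE), adjusted p = 0.00259) and a 1.96-fold fall in involution (log2 change -0.97 ± 0.18 (SE), adjusted p = 0.00303). Ndufc1, a small subunit of the membrane arm, gave 745, 744 and 802 at puberty, 698 and 492 in pregnancy, 1404 and 1299 in lactation and 854 and 594 in involution. It was likewise highest on the lactation arrays, 2.30-fold above pregnancy (log2 change 1.20 ± 0.21 (SE), adjusted p = 0.00239) and 1.90-fold lower again in involution (log2 change -0.92 ± 0.21 (SE), adjusted p = 0.00736). Ndufa1, another small membrane arm subunit, had low signals of 41.3, 43.3 and 47.4 at puberty, 45.5 and 26.2 in pregnancy, 108 and 61.2 in lactation and 34.7 and 30.0 in involution. Its lactation arrays did not overlap the rest but differed from each other, the rise was 1.23 ± 0.35 on the log2 scale (adjusted p = 0.0204), and its fall in involution was the largest of all members, with a change of -1.33 ± 0.35 (adjusted p = 0.0136).

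Ndufb3 of the same membrane arm went the other way and gave 811, 848 and 802 at puberty, 732 and 501 in pregnancy, 416 and 284 in lactation and 530.1 and 398 in involution. It was highest at puberty and lowest in lactation, and its fall from pregnancy was the largest among the members called (log2 change -0.82 ± 0.24 (SE), adjusted p = 0.0244). Ndufa8, which faces the intermembrane space, gave 345, 377 and 331 at puberty, 304 and 284 in pregnancy, 204 and 209 in lactation and 316 and 264 in involution. Both its lactation arrays lay below the other 7, 1.42-fold below pregnancy (log2 change -0.51 ± 0.14 (SE), adjusted p = 0.022), and it rose 1.40-fold in involution (log2 change 0.48 ± 0.14 (SE), adjusted p = 0.0249). Ndufa5, an accessory subunit of the arm that reaches into the matrix, was also lowest in lactation, with 506 and 486 in lactation against 913 and 789 in pregnancy and 752 and 864 in involution. Its changes were -0.77 ± 0.17 and 0.70 ± 0.17 on the log2 scale (adjusted p = 0.00733 and 0.0103).

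Among the other complex I members, Ndufb6 rose in lactation (0.67, adjusted p = 0.0442) and fell in involution (-0.75, adjusted p = 0.0258). In involution the brightest probe set of Ndufb2 fell by 1.09 on the log2 scale while its next brightest rose by 0.96. Ndufv2 fell by 0.67, and Ndufb10 and Ndufa3 rose by 0.54 and 0.70. Of the 4 core subunits measured, which carry the flavin and iron-sulfur clusters or hold the quinone site (Ndufs1, Ndufs3, Ndufv1, Ndufv2), none passed the test from pregnancy to lactation, with changes between -0.24 and 0.27. The remaining members that passed the filter had changes between -0.51 and 0.62 from pregnancy to lactation, none past the test. For members, the lists of lost calls here and below cover only the fit without each array and the other scalings. These scalings are the values as deposited, 75th percentile scaling and quantile normalization. Other alternatives also ended calls, such as plain analysis of variance for Sdhc and a replicate block for Ndufaf1, both in lactation. Calls of complex I in lactation were lost, with the adjusted p then found in parentheses, for Ndufb3 without pregnancy replicate 1 or lactation replicate 2 (adjusted p from 0.176 to 0.18) and for Ndufa8 without pregnancy replicate 1, 2 or lactation replicate 1 (adjusted p from 0.0511 to 0.0943). So were those of Ndufa5 without pregnancy replicate 1 (adjusted p = 0.0592) and Ndufa1 without pregnancy replicate 2 or lactation replicate 1 (adjusted p from 0.122 to 0.14). The same held for Ndufb6 without any array but involution replicate 1 and 2 and with the values as deposited or quantile normalization (adjusted p from 0.0583 to 0.267). Calls in involution were lost for Ndufc1 without lactation replicate 1 (adjusted p = 0.0698) and for Ndufa8 without lactation replicate 1 or involution replicate 1 (adjusted p from 0.0556 to 0.0721). So were those of Ndufa5 without lactation replicate 1, 2 or involution replicate 2 (adjusted p from 0.0512 to 0.0608) and Ndufb10 without any array but puberty replicate 3, pregnancy replicate 1, 2 and involution replicate 2 and with 75th percentile scaling (adjusted p from 0.0518 to 0.202). The same held for Ndufa1 without lactation replicate 1, involution replicate 1 or 2 (adjusted p from 0.0543 to 0.0886) and Ndufv2 without lactation replicate 1 or involution replicate 2 (adjusted p from 0.075 to 0.0757). So were those of Ndufb6 without lactation replicate 1, 2 or involution replicate 2 and with quantile normalization (adjusted p from 0.0711 to 0.14) and Ndufa3 without any array but puberty replicate 3, lactation replicate 1 and involution replicate 1 and with 75th percentile scaling (adjusted p from 0.0549 to 0.259).

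Complex II, succinate dehydrogenase, is also an enzyme of the citric acid cycle, and its catalytic subunit Sdha and anchor Sdhc were at their lowest in lactation. Sdha, the flavoprotein that oxidizes succinate, gave 196, 223 and 231 at puberty, 111 and 91.8 in pregnancy, 69.6 and 77.5 in lactation and 195 and 120.2 in involution. The 3 puberty arrays lay above both pregnancy arrays, a 2.14-fold fall (log2 change -1.10 ± 0.22 (SE), adjusted p = 0.0154), and both lactation arrays lay below the other 7 although the step from pregnancy did not pass (log2 change -0.46 ± 0.25 (SE), adjusted p = 0.172). In involution Sdha rose 2.08-fold, the largest rise of any member in that step (log2 change 1.06 ± 0.25 (SE), adjusted p = 0.00826). Sdhc, a membrane anchor that helps bind ubiquinone, gave 854, 1048 and 1193 at puberty, 883 and 640.1 in pregnancy, 425 and 464 in lactation and 801 and 878 in involution. Its lactation arrays were again below all others, 1.69-fold lower than pregnancy (log2 change -0.76 ± 0.20 (SE), adjusted p = 0.0157), and it rose 1.89-fold in involution (log2 change 0.92 ± 0.20 (SE), adjusted p = 0.00606).

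The other subunits of complex II did not follow this pattern. Sdhb, the iron-sulfur subunit, gave 1182, 1014 and 1150.3 at puberty, 823 and 804 in pregnancy, 846 and 826 in lactation and 916 and 771 in involution. It was highest at puberty and near level thereafter (F test adjusted p = 0.031), with a change of -0.45 ± 0.13 into pregnancy that did not pass (adjusted p = 0.0522) and of 0.04 ± 0.14 into lactation. The F test of Sdhb no longer passed without puberty replicate 1 or 3 or either pregnancy array (adjusted p from 0.0579 to 0.117). The anchor Sdhd gave 928, 992 and 1274 at puberty, 1062 and 793 in pregnancy, 1234 and 1322 in lactation and 1113 and 1000 in involution and passed no test, with a change of 0.48 ± 0.19 into lactation (adjusted p = 0.0807). The call in pregnancy was lost for Sdha without any array but puberty replicate 1, involution replicate 1 and 2 (adjusted p from 0.052 to 0.152). Calls in lactation were lost for Sdhc without pregnancy replicate 1, lactation replicate 1 or 2 (adjusted p from 0.066 to 0.117). Calls in involution were lost for Sdha without lactation replicate 1 (adjusted p = 0.0626) and for Sdhc without lactation replicate 1 (adjusted p = 0.0599).

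In complex III, which passes electrons from ubiquinol to cytochrome c, 2 of 7 members were higher (21.6% of all probe sets) and 1 lower (19.7%) in lactation. Uqcrq, a small subunit that binds near cytochrome b, gave 2256, 2334 and 3030.1 at puberty, 2311 and 1597 in pregnancy, 4478 and 4287 in lactation and 2354 and 2338 in involution. Both lactation arrays exceeded all others, 2.28-fold above pregnancy (log2 change 1.19 ± 0.21 (SE), adjusted p = 0.00263), and the signal fell 1.87-fold in involution (log2 change -0.90 ± 0.21 (SE), adjusted p = 0.00869). Uqcrc2, a large matrix-side core protein, gave 680.1, 663 and 996 at puberty, 791 and 785 in pregnancy, 1489 and 1130.0 in lactation and 772 and 976 in involution. It rose 1.65-fold in lactation (log2 change 0.72 ± 0.23 (SE), adjusted p = 0.0348). Its partner Uqcrc1 gave 1306, 1129 and 1119 at puberty, 995 and 772 in pregnancy, 895 and 818 in lactation and 663 and 736 in involution, which differed over the stages (F test adjusted p = 0.0119), with the 3 puberty arrays highest and both involution arrays lowest, and no single step passed. Uqcrh, the hinge protein at the cytochrome c docking site, gave 1115, 1099 and 1336 at puberty, 1301 and 1094 in pregnancy, 883 and 769.7 in lactation and 1205 and 1046 in involution. Both lactation arrays were below the other 7, and the fall from pregnancy was 1.45-fold (log2 change -0.53 ± 0.16 (SE), adjusted p = 0.0281). Uqcr10, Uqcr11 and Uqcrb had changes between -0.16 and 0.20, none past the test. Calls in lactation were lost for Uqcrh without pregnancy replicate 1, lactation replicate 1 or 2 (adjusted p from 0.0506 to 0.157) and for Uqcrc2 without any array but puberty replicate 1, 2, 3 and involution replicate 2 and with the values as deposited or quantile normalization (adjusted p from 0.0574 to 0.228). Calls in involution were lost for Uqcrq without lactation replicate 1, 2 or involution replicate 1 (adjusted p from 0.0512 to 0.0665).

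Complex IV, cytochrome c oxidase, had the highest median change into lactation of the 5 complexes. Cox7b, one of the small subunits that surround the catalytic core, gave 551, 600.1 and 517 at puberty, 638 and 611 in pregnancy, 1456 and 976 in lactation and 624 and 645 in involution. Both lactation arrays were above the other 7, with a 1.91-fold rise (log2 change 0.93 ± 0.18 (SE), adjusted p = 0.00435) and a 1.88-fold fall in involution (log2 change -0.91 ± 0.18 (SE), adjusted p = 0.00433). Cox6b1, a subunit on the intermembrane side of the complex, gave low signals of 42.4, 58.1 and 59.7 at puberty, 58.7 and 70.4 in pregnancy, 181 and 138 in lactation and 68.7 and 62.3 in involution. Its rise into lactation was the largest of all members at 2.46-fold (log2 change 1.30 ± 0.26 (SE), adjusted p = 0.00495), and it fell 2.41-fold in involution (log2 change -1.27 ± 0.26 (SE), adjusted p = 0.00481). The calls of Cox7b and Cox6b1 in both steps held under every alternative run.

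The widely expressed isoforms Cox6a1 and Cox7a2 were high in lactation too. Cox6a1 gave 3241, 2939 and 3512 at puberty, 3104 and 2512 in pregnancy, 5602 and 5439.9 in lactation and 3181 and 4429 in involution, with a 1.98-fold rise in lactation (log2 change 0.98 ± 0.20 (SE), adjusted p = 0.00509). Its change in involution was -0.56 ± 0.20 and did not pass (adjusted p = 0.0506), the second involution array being nearer to lactation. Cox7a2 gave 1235, 1528 and 1690.3 at puberty, 1939 and 1535 in pregnancy, 2937 and 2885 in lactation and 1875 and 1562 in involution, a rise of 0.75 ± 0.19 (adjusted p = 0.0136) and a change of -0.77 ± 0.19 in involution (adjusted p = 0.0115). The probe set of Cox8c, whose gene is known as the testis isoform of subunit 8, gave 232, 195 and 267 at puberty, 243 and 272 in pregnancy, 546 and 518 in lactation and 251 and 269.9 in involution, with a 2.07-fold rise (log2 change 1.05 ± 0.17 (SE), adjusted p = 0.00166) and a 2.04-fold fall (log2 change -1.03 ± 0.17 (SE), adjusted p = 0.0015).

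Cox7a2l, a relative of Cox7a2 that is known for joining complexes III and IV, went the opposite way. It gave 419, 513 and 507 at puberty, 698 and 628 in pregnancy, 422 and 485 in lactation and 653 and 653 in involution, so that the lactation and puberty arrays overlapped and pregnancy and involution lay above them. It fell 1.46-fold in lactation (log2 change -0.55 ± 0.15 (SE), adjusted p = 0.0174) and rose 1.44-fold in involution (log2 change 0.53 ± 0.15 (SE), adjusted p = 0.0186). On their brightest probe sets, Cox5b, Cox6c and Cox4i1, the last a subunit known for allosteric control by ATP, passed no test in any step. Another tested set of Cox6c had low signals of 10.7 and 13.27 in pregnancy, 46.83 and 44.31 in lactation and 7.58 and 26.95 in involution. With signals under the floor raised to it, its changes of 1.19 in lactation and -0.97 in involution passed (adjusted p = 0.000979 and 0.00217). Cox4i1 gave 94, 127 and 132 at puberty, 91.4 and 109.7 in pregnancy, 117 and 82.9 in lactation and 111 and 128 in involution. Cox5a and the brightest probe set of the testis isoform Cox6b2 had signals under 50 on every array and passed no test. Cox8a gave 7.14, 11.9 and 3.71 at puberty, 2.8 and 1.71 in pregnancy, 5.81 and 8.06 in lactation and 4.91 and 14.2 in involution, too low to be tested. Calls of complex IV in lactation were lost for Cox7a2 without pregnancy replicate 2, lactation replicate 1 or 2 and with quantile normalization (adjusted p from 0.066 to 0.234) and for Cox6a1 with quantile normalization (adjusted p = 0.0906). So were those of Cox7a2l without pregnancy replicate 1 or lactation replicate 1 (adjusted p from 0.0718 to 0.0947). In involution this held for Cox7a2 without lactation replicate 1, 2 or involution replicate 2 and with quantile normalization (adjusted p from 0.0607 to 0.083) and for Cox7a2l without lactation replicate 1, involution replicate 1 or 2 (adjusted p from 0.0572 to 0.0762).

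**Figure D3:**
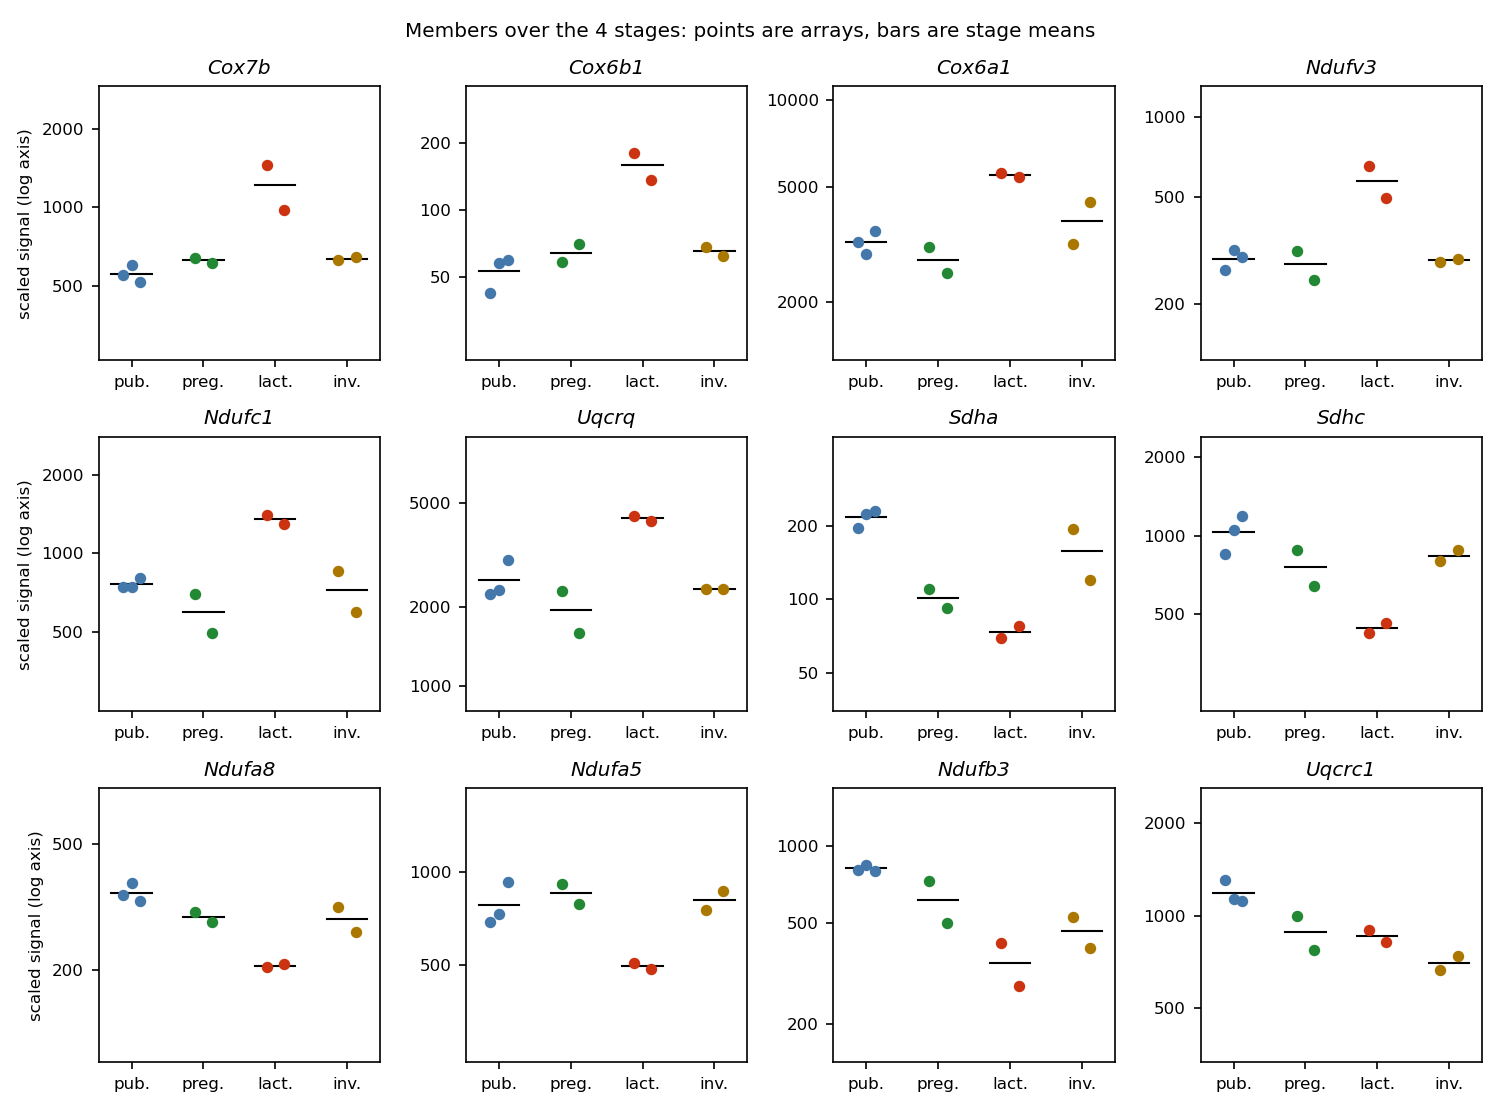
Scaled signal (log axis) of selected members at puberty, pregnancy, lactation and involution, where points are arrays and bars are stage means. The points of Ndufv3, Cox7b and Uqcrq are highest in lactation, and those of Sdha and Sdhc are lowest there.

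In ATP synthase, 4 of 14 members rose into lactation (21.6% of all probe sets), 1 fell (19.7%), and 6 fell in involution (23%). Atp5l, subunit g of the membrane part, gave 2019.9, 2268 and 2827 at puberty, 2642 and 2171 in pregnancy, 3932 and 3738 in lactation and 2599 and 2439.7 in involution. Both lactation arrays were above the other 7, 1.60-fold over pregnancy (log2 change 0.68 ± 0.19 (SE), adjusted p = 0.0192) with a 1.52-fold fall in involution (log2 change -0.61 ± 0.19 (SE), adjusted p = 0.028). Atp5e, the epsilon subunit of the central stalk, gave 767, 721 and 1002 at puberty, 831 and 533 in pregnancy, 1024 and 1166 in lactation and 593 and 512 in involution. It rose 1.64-fold (log2 change 0.71 ± 0.23 (SE), adjusted p = 0.0382) and fell 1.98-fold (log2 change -0.99 ± 0.23 (SE), adjusted p = 0.00909). Atp5mpl, a small proteolipid of the membrane part, gave 714, 956 and 877 at puberty, 1306 and 1147 in pregnancy, 1627 and 1426 in lactation and 950.3 and 669 in involution. Its signal lay higher in pregnancy than at puberty and highest in lactation, although neither step passed (0.54 ± 0.19 and 0.32 ± 0.20), and it fell 1.91-fold in involution (log2 change -0.93 ± 0.20 (SE), adjusted p = 0.00624).

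Atp5j2, subunit f, had signals near the floor of 20, with 14.2, 9.07 and 12.8 at puberty, 17.8 and 15.3 in pregnancy, 39.2 and 29.9 in lactation and 19.4 and 20.4 in involution. Its puberty and pregnancy arrays were all under the floor, so lactation was at least 1.71-fold higher than either stage, with an adjusted p of 0.0048 against pregnancy. With a floor of 50 this change was 0 by construction. Atp5g1, which encodes the c subunit of the rotor ring, read 63 and 61.8 in lactation against 38.8 and 34.2 in pregnancy, a rise of 0.78 ± 0.21 on the log2 scale (adjusted p = 0.0175). In the catalytic part Atp5a1, the alpha subunit, read 2142 and 2013 in pregnancy, 2349 and 2701 in lactation and 1835 and 1950.4 in involution, with changes of 0.28 ± 0.14 (adjusted p = 0.159) and -0.41 ± 0.14 (adjusted p = 0.0452).

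Atp5c1, the gamma subunit that turns inside the catalytic head, read 1679 and 1528 in pregnancy and 1158 and 1068 in lactation and was the only member of ATP synthase called lower (log2 change -0.53 ± 0.18 (SE), adjusted p = 0.0422). Atp5o, the stalk subunit that confers oligomycin sensitivity, fell by 0.72 in involution (adjusted p = 0.0428). On their brightest probe sets, Atp5d, Atp5g2, Atp5j, Atp5k, Atp5md and Atp5pb passed no test. Atp5k was 83.1 and 7.21 on the lactation arrays, which differed from each other more than the stages did. Calls of ATP synthase in lactation were lost for Atp5l without pregnancy replicate 2, lactation replicate 1 or 2 and with quantile normalization (adjusted p from 0.0672 to 0.462) and for Atp5e without any array but puberty replicate 2, 3 and pregnancy replicate 1 and with the values as deposited or quantile normalization (adjusted p from 0.0541 to 0.246). So were those of Atp5g1 without pregnancy replicate 2 (adjusted p = 0.0689) and Atp5c1 without any array but involution replicate 1 and 2 (adjusted p from 0.0571 to 0.181). Calls in involution were lost for Atp5mpl without lactation replicate 1 (adjusted p = 0.065) and for Atp5l without lactation replicate 1, 2, involution replicate 1 or 2 and with quantile normalization (adjusted p from 0.0779 to 0.322). So were those of Atp5e without lactation replicate 1, 2 or involution replicate 2 (adjusted p from 0.0545 to 0.0848) and Atp5a1 without any array but puberty replicate 3 and lactation replicate 1 and with quantile normalization (adjusted p from 0.0533 to 0.477). The same held for Atp5o without any array but pregnancy replicate 1 and 2 and with quantile normalization (adjusted p from 0.0517 to 0.275).

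Of the assembly factors of complex I, Ndufaf1 gave 107, 108 and 104 at puberty, 89.2 and 103 in pregnancy, 158 and 149 in lactation and 114 and 78.5 in involution, with both lactation arrays above the other 7. It rose 1.60-fold (log2 change 0.68 ± 0.22 (SE), adjusted p = 0.0367) and fell 1.62-fold (log2 change -0.70 ± 0.22 (SE), adjusted p = 0.0303). Ndufaf4 gave 47.5, 43.6 and 44 at puberty, 49.2 and 37.8 in pregnancy, 58 and 39.5 in lactation and 38.6 and 38.7 in involution and passed no test. The call in lactation was lost for Ndufaf1 without any array but involution replicate 1 and 2 and with the values as deposited (adjusted p from 0.053 to 0.162). In involution it was lost for Ndufaf1 without puberty replicate 2, lactation replicate 1, 2 or involution replicate 2 (adjusted p from 0.0501 to 0.111).

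From puberty to pregnancy few members changed, and the muscle isoform Cox6a2 changed far more than any other. The test called 0 members higher (6.2% of all probe sets) and 3 lower (5.22%), namely Cox6a2, Sdha and Ndufs3. With the deposited values or quantile normalization 1 member was higher and 3 were lower. Median changes were -0.24 for complex I, -0.45 for complex II, -0.17 for complex III and 0.08 for each of complex IV and ATP synthase, beside 0 for all probe sets tested. Cox6a2, the isoform of subunit 6a found in heart and skeletal muscle, gave 575, 347 and 1018 at puberty, 32.6 and 14.7 in pregnancy, 10.4 and 5.3 in lactation and 36.1 and 17.9 in involution. All 3 puberty arrays lay far above every other array, of which the highest was 36.1, and lactation was below the floor, so puberty was at least 29.4-fold higher than lactation. The change into pregnancy was -4.52 ± 0.46 on the log2 scale (adjusted p = 0.000905), and this call held in every alternative run. Since the second pregnancy array was set to 20, the size of this change is a lower bound. Ndufs3, a core subunit near the quinone site of complex I, gave 789, 859 and 957 at puberty, 676 and 515 in pregnancy, 594 and 573 in lactation and 719 and 714 in involution. Its puberty arrays were above both pregnancy arrays, by 1.47-fold (log2 change -0.55 ± 0.15 (SE), adjusted p = 0.0438). This call was lost for Ndufs3 without any array but pregnancy replicate 1 (adjusted p from 0.0599 to 0.264).

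Cox6a2 moved beside markers of skeletal muscle. Of 14 such markers tested, 13 were lower in pregnancy than at puberty, and their summed signal was between 14388 and 35175 at puberty and between 661 and 2036 in pregnancy, 865 and 1013 in lactation and 887 and 1174 in involution. Over the puberty arrays Cox6a2 had the same order as the mean level of the list, which was 2.77, 2.13 and 3.42 log2 units above the average of the 9 arrays. The part of muscle in this result was not tested. The muscle and brown fat isoforms left out by the rule fell with it. Cox8b gave 1014, 837 and 1072 at puberty, 336 and 271 in pregnancy, 316 and 307 in lactation and 473 and 283 in involution (change -1.68 ± 0.22, adjusted p = 0.00269), and Cox7a1 gave 152, 47.4 and 102 at puberty, 15 and 14.3 in pregnancy, 16.8 and 14.5 in lactation and 20.3 and 19.6 in involution, at least 4.51-fold higher at puberty than in pregnancy. The level of the brown adipocyte list was 1.81 on the first puberty array, 0.15 and 0.25 on the other puberty arrays, -0.58 and -0.94 in pregnancy, 0.38 and 0.48 in lactation and -0.81 and -0.75 in involution. Of its 5 tested genes, 1 was called higher and 0 lower in lactation than in pregnancy, with a median change of 0. The summed signal of the 7 genes measured was between 444 and 532 in pregnancy and between 11175 and 15291 in lactation. Cox8b and Cox7a1 belong to that list, so its level is partly made of their own values and is no independent comparison for them. Cox7a1 was highest on the first puberty array and next on puberty replicate 3, and in lactation it was below the floor. The part of brown fat in these values was not tested. The widely expressed partners had changes of -0.21 ± 0.18 for Cox6a1 and 0.23 ± 0.18 for Cox7a2, neither past the test.

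**Figure D4:**
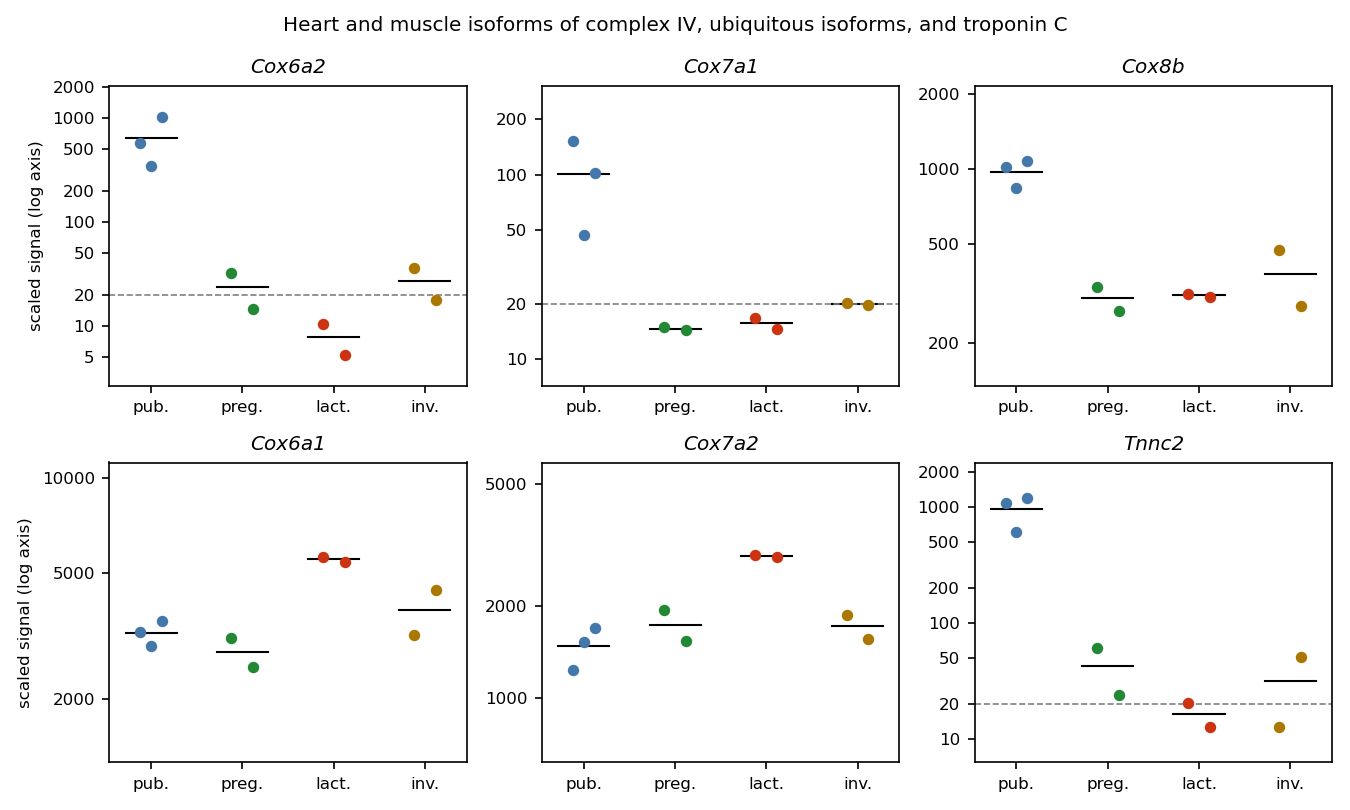
Scaled signal (log axis) of the heart and muscle isoforms of complex IV, their widely expressed counterparts and the skeletal muscle marker troponin C at the 4 stages, with 1 point for each array, a bar at the mean of each stage and the floor of 20 dashed. The muscle isoforms and troponin C (Tnnc2) are highest at puberty, with Cox6a2 between 347 and 1018, and Cox6a1 and Cox7a2 are highest in lactation.

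From lactation to involution more members fell than rose. The test called 7 members higher (22.1% of all probe sets) and 18 lower (23%). The members lower were 6 of complex I, 6 of ATP synthase, 4 of complex IV, 1 of complex III and 1 assembly factor, and those higher were 4 of complex I, 2 of complex II and 1 of complex IV. Median changes were -0.52 for complex IV, -0.36 for ATP synthase, 0.13 for complex I, 0.46 for complex II and -0.19 for complex III, beside -0.16 for all members and -0.03 for all probe sets tested. Since the lactation arrays enter both steps, an opposite sign in them is not independent. With quantile normalization 9 members were higher and 13 lower, and without lactation replicate 1 the count of members lower was 9. The summed signal of the 10 luminal and secretory markers was between 7682 and 9620 in involution, against 60977 to 77688 in lactation. Of these markers 2 were higher and 3 lower. In involution 5 of 6 macrophage markers, 7 of 8 white adipocyte markers and all 5 T cell markers tested were higher than in lactation. So were all 5 B and plasma cell markers tested. Of 6 endothelial markers tested, 4 were higher and 1 was lower. Summed macrophage signal was 5539 to 7070, against 1461 to 2441. Their part in the changes of the members was not tested.

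For some members the result depended on the probe set read. Of 12 members with several tested probe sets, 7 had probe sets of opposite sign from pregnancy to lactation. For Ndufb2 the brightest gave 1108, 1189.6 and 1666 at puberty, 1659 and 1346 in pregnancy, 2207 and 2187 in lactation and 1166 and 919 in involution, with a change into lactation of 0.56 ± 0.22 that did not pass (adjusted p = 0.072). The next brightest gave 1064, 1202 and 1272 at puberty, 1326 and 1076 in pregnancy, 679 and 700.3 in lactation and 1235 and 1449.9 in involution and fell by 0.79 (adjusted p = 0.00433), and in involution the first had a change of -1.09 ± 0.22 and the second of 0.96 ± 0.16, both past the test (adjusted p = 0.00416 and 0.00147). With both averaged, beside sets too low to be tested, the change in involution was -0.03 (adjusted p = 0.894). The names of both carry an added letter in the suffix, which marks several kinds of probe set that differ from plain ones. These kinds were not told apart here. For Atp5d, the delta subunit, the brightest set had a change of -0.06 ± 0.29, and 3 of the other 4 were higher in lactation, 1 of them with 139.7 and 121 in pregnancy and 254 and 207 in lactation (0.82 ± 0.18, adjusted p = 0.00745). In involution the brightest set of Atp5d had a change of -0.06, and the other 4 fell by 0.65 to 1.17 (adjusted p from 0.00422 to 0.0264). For Atp5c1 the brightest set fell in lactation, while the other had a change of 0.37 ± 0.23 that did not pass (adjusted p = 0.24). In involution that other set of Atp5c1 fell by 0.75 (adjusted p = 0.0286), and the brightest had a change of 0.15 that did not pass. For Cox6b2 the other tested set gave 3.05, 4.39 and 17.3 at puberty, 17.2 and 8.81 in pregnancy, 59.2 and 38 in lactation and 6.14 and 17 in involution, and with the arrays under 20 set to 20 its changes of 1.25 in lactation and -1.25 in involution passed (adjusted p = 0.00171 and 0.00143). Averaging also ended the calls of Atp5c1, Ndufb6, Cox8c and Ndufaf1 in lactation (adjusted p from 0.0664 to 0.784). In involution it ended those of Ndufb6, Ndufb10, Ndufv2, Cox8c, Ndufaf1 and, with a change of sign, Ndufa3 (0.0654 to 0.825). For Cox8c, Ndufaf1 and Ndufb10 the average took in a probe set under the floor of 20 on every array. Such a set has no change once floored, so the averaged change is smaller by construction. A total of 17 members were read on probe sets marked with an added letter and 52 on unmarked ones. Of the 23 members called in lactation 6 were on marked sets, namely Cox6a1, Cox6b1, Uqcrc2, Atp5e, Ndufa5 and Atp5c1.

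The enzymes that feed the chain moved in both directions in lactation. Of 19 genes listed for pyruvate entry and the citric acid cycle, 16 were tested, and 6 were higher and 4 lower in lactation than in pregnancy, with a median change of -0.02, where 21.6% of all probe sets were higher and 19.7% lower. Pdhb, of the pyruvate dehydrogenase complex, gave 1312, 1176 and 1182 at puberty, 843 and 893 in pregnancy, 2953 and 2869 in lactation and 1513 and 1094 in involution, a 3.36-fold rise (log2 change 1.75 ± 0.17 (SE), adjusted p = 0.000146). Idh2, the NADP-dependent isocitrate dehydrogenase, gave 276, 293 and 288 at puberty, 304 and 277 in pregnancy, 115 and 107 in lactation and 248 and 273 in involution, a 2.61-fold fall (log2 change -1.39 ± 0.14 (SE), adjusted p = 0.000178). Sucla2, of succinyl-CoA synthetase, gave 598, 439 and 554 at puberty, 344 and 281 in pregnancy, 186 and 193 in lactation and 402 and 404 in involution and fell 1.64-fold (log2 change -0.71 ± 0.18 (SE), adjusted p = 0.0121). Named after their values were seen, the other genes higher were Dlat (1.33), Cs, the citrate synthase (1.18), Dld (0.86), Pcx (0.78) and Pdha1 (0.48), and the others lower were Dlst (-1.22) and Suclg1 (-0.99). Dld is a shared subunit of the pyruvate and 2-oxoglutarate dehydrogenase complexes. In involution Pdhb, Dlat, Cs, Dld and Pdha1 fell, and Idh2, Dlst, Suclg1, Sucla2, Idh3a and Ogdh rose (22.1% of all probe sets were higher and 23% lower). With the deposited values or quantile normalization the split in lactation was 5 and 5, Pdha1 not passing. Calls in lactation were also lost for Pdha1 without puberty replicate 2, either pregnancy array or lactation replicate 1 (adjusted p up to 0.311 over all alternatives). Dld and Pcx lost theirs without pregnancy replicate 2 or either lactation array (up to 0.141 and 0.175). Sucla2 lost its call without pregnancy replicate 1 or either lactation array (up to 0.0861). Calls in involution were lost for Dld without either lactation array or involution replicate 2 (up to 0.128) and for Dlst without lactation replicate 1 or involution replicate 1 (up to 0.0962). Pdha1 and Idh3a lost theirs without lactation replicate 1 or involution replicate 2 (up to 0.169 and 0.161). Ogdh lost its call in involution without any array but the pregnancy arrays (up to 0.198).

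**Figure D5:**
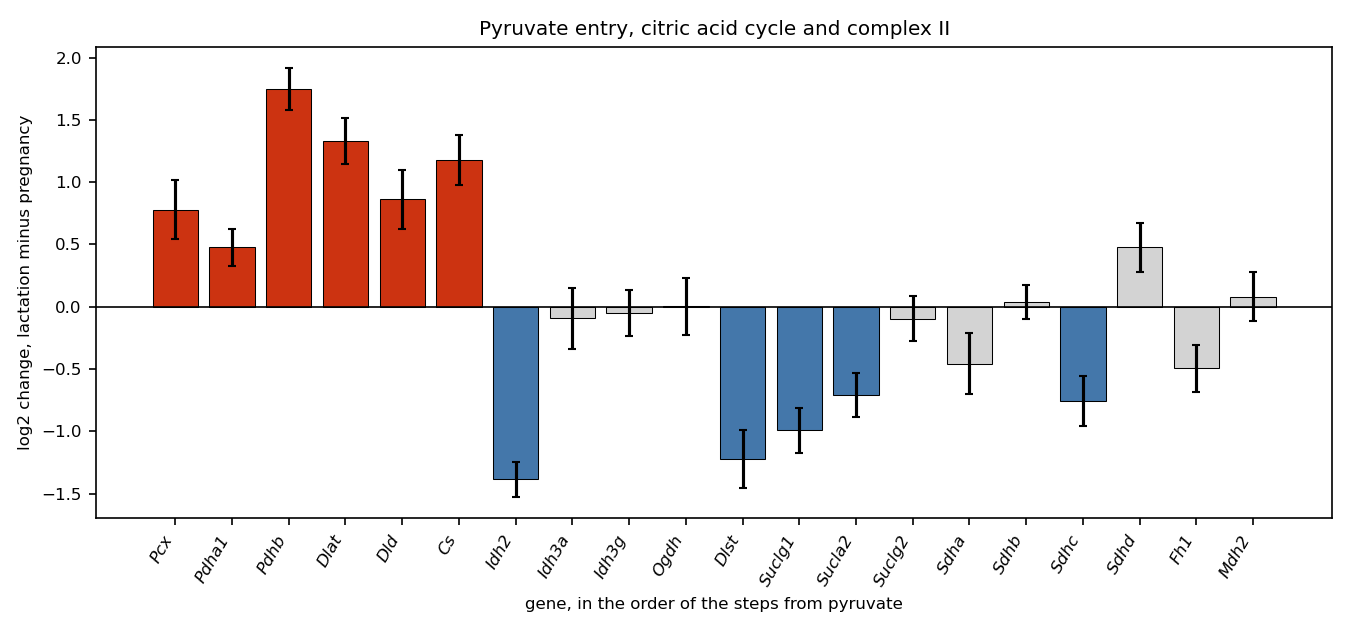
Log2 change from pregnancy to lactation (bars, with SE as whiskers, red or blue where higher or lower past the test and grey where not) of the genes of pyruvate entry, the citric acid cycle and complex II, in the order of the steps. Bars of the pyruvate dehydrogenase genes and citrate synthase are above 0 (Pdhb 1.75, Cs 1.18), and bars from Idh2 to Sdhc are mostly at or below 0 (Idh2 -1.39, Sdhc -0.76).

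Carriers next to the chain included some of the larger changes in lactation. Of 12 tested genes for electron carriers and for exchange of nucleotides or phosphate, 1 was higher (21.6% of all probe sets) and 3 were lower (19.7%), with a median change of -0.31. Slc25a4, the ADP/ATP carrier typical of heart and muscle, gave 1343, 1121 and 1729.6 at puberty, 1103 and 913 in pregnancy, 207 and 357 in lactation and 859 and 871 in involution. Both lactation arrays were below the other 7, a 3.69-fold fall (log2 change -1.88 ± 0.27 (SE), adjusted p = 0.000986) with a 3.18-fold rise in involution (log2 change 1.67 ± 0.27 (SE), adjusted p = 0.00146). Etfb, a subunit of the flavoprotein that brings electrons from fatty acid oxidation to ubiquinone, gave 886, 956 and 1164 at puberty, 685 and 438 in pregnancy, 284 and 325 in lactation and 834 and 761 in involution and fell 1.80-fold (log2 change -0.85 ± 0.22 (SE), adjusted p = 0.0148). Its call was lost without pregnancy replicate 1 or either lactation array, with adjusted p up to 0.117, and that of Etfa, the other gene called lower, without pregnancy replicate 1 (0.0693). Ckmt1, a mitochondrial creatine kinase, gave 15, 21.9 and 24.2 at puberty, 24.7 and 22.6 in pregnancy, 127 and 69.3 in lactation and 30.7 and 30.2 in involution, a rise of 1.99 ± 0.28 on the log2 scale (adjusted p = 0.000863).

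Of 9 tested genes listed as assembly factors outside the rule, 0 were higher (21.6% of all probe sets) and 3 lower (19.7%) in lactation, namely Uqcc1, Cox17 and Coq7. In involution 5 were higher (22.1%) and 1 lower (23%). Uqcc1, which is needed to assemble complex III, gave 166, 177 and 215 at puberty, 149 and 124 in pregnancy, 31.6 and 29.9 in lactation and 182 and 114 in involution. It fell 4.42-fold (log2 change -2.14 ± 0.26 (SE), adjusted p = 0.000415) and rose 4.69-fold (log2 change 2.23 ± 0.26 (SE), adjusted p = 0.000256), and the lactation arrays did not overlap any other. Cox17, the copper chaperone of complex IV, gave 558, 586 and 668 at puberty, 552 and 463 in pregnancy, 364 and 282 in lactation and 664 and 499 in involution, a fall of 0.66 (adjusted p = 0.0255) that was lost without pregnancy replicate 1 and under 6 further alternatives, with adjusted p up to 0.156. Coq7, an enzyme of ubiquinone synthesis, gave 80.2, 63.2 and 79.6 at puberty, 100.4 and 98.1 in pregnancy, 38.5 and 47.6 in lactation and 63.2 and 73.2 in involution and fell 2.32-fold (log2 change -1.21 ± 0.24 (SE), adjusted p = 0.00408). Of the calls in involution only that of Uqcc1 held in every alternative run. Those of Coq7, Lrpprc, Sdhaf1, Sdhaf2 and Cox17 were each lost without at least 1 array, with adjusted p up to 0.141, 0.083, 0.129, 0.0855 and 0.0646 over all alternatives.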

How the data were processed

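Total RNA of the whole mammary gland was hybridized to 9 MG-U74Av2 oligonucleotide arrays. Per the labels and the values, the authors deposited MAS5 signals as linear intensity, neither logged nor centred per gene (the MAS5 version is not given in the sources used here). For the tests, 66 control probe sets were dropped, each array was brought to a common median (12422 probe sets), signals below 20 were raised to 20, and values were converted to log2. Printed signals are scaled signals without this floor. Probe sets with a stage mean above 20 in at least 1 stage were tested (9783).

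Stages were compared with limma 3.58.1 under R 4.3.3, by lmFit and by eBayes with an intensity trend: an F test over the 4 stages and the contrasts pregnancy minus puberty, lactation minus pregnancy and involution minus lactation, with all 9 arrays in 1 fit. The Benjamini-Hochberg adjustment ran over all probe sets tested, with a threshold of 0.05, and the fit was tested on simulated data. With 2 or 3 arrays per stage the number of arrays limits the precision. Members and gene lists were chosen with earlier results of these data known, so no set was tested. Per complex, signals on every array are given for up to 4 members with the smallest adjusted p of the F test, for the largest rise and fall of each contrast and for the isoforms of complex IV, and other genes are the 3 per list with the smallest adjusted p. Symbols came from the platform annotation (10833 probe sets with 1 symbol, 396 with several and 1193 unlisted), of which 10817 were matched to RefSeq (GRCm38.p6). Figures were drawn with matplotlib 3.10.9.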

Additional observations from a re-analysis of the deposited data

How the results depend on the processing

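Values as deposited, 75th percentile scaling, quantile normalization, a filter of 100 or none, a floor of 50 or none, an added constant of 16, a robust fit, no trend, plain analysis of variance, a replicate block, probe sets of a gene averaged and the fit without each array were run. In all of these, 7 of the 27 members that passed the F test, 1 of 3 called in pregnancy, 5 of 23 called in lactation and 3 of 25 called in involution kept their call. Over the 3 other scalings alone, 23, 3, 16 and 18 kept it. With quantile normalization 10 members were higher and 11 lower in lactation, 1 was higher in pregnancy (1 also with the values as deposited), and the medians in lactation were -0.17 for complex I, -0.29 for complex III, 0.14 for complex IV, 0.0345 for complex V and -0.0787 for all members, and in involution -0.12 for complex IV and -0.16 for complex V. The robust fit gave 6 higher and 11 lower in pregnancy and 11 higher in involution, and plain analysis of variance 1 lower in pregnancy and 3 lower in lactation. A floor of 50 gave medians in lactation of 0.34 for complex IV and 0.0238 for all members, in involution -0.31 for complex IV and -0.20 for complex V, and a change of 0 (adjusted p = 1) for Atp5j2 in lactation, where both stages then lie at the floor. A filter of 100 gave 0.0395 for all members in lactation and left Ndufaf1 alone among the assembly factors (0.68 in lactation, -0.70 in involution). With probe sets of a gene averaged, the assembly factors gave 0.21 in lactation and -0.25 in involution, complex V -0.50 in involution, and Ndufa3 turned to -0.11 in involution (adjusted p = 0.825). Except where a construction is named, the cause was not tested.

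Without 1 array the members passing the F test numbered 17 to 30, those higher and lower 0 to 0 and 1 to 3 in pregnancy, 8 to 15 and 0 to 7 in lactation (8 higher without pregnancy replicate 2, 0 lower without pregnancy replicate 1) and 3 to 8 and 9 to 18 in involution (9 lower without lactation replicate 1). Medians in lactation ranged from -0.15 to 0.0887 for complex I, -0.28 to -0.13 for II, -0.22 to 0.15 for III, 0.24 to 0.76 for IV, 0.20 to 0.37 for V, 0.25 to 0.58 for the assembly factors and 0.0401 to 0.25 for all members. In involution they ranged from -0.0081 to 0.13, 0.30 to 0.49, -0.23 to 0.008, -0.66 to -0.23, -0.41 to -0.30, -0.66 to -0.34 and -0.20 to -0.0912 in the same order. In pregnancy they ranged from -0.30 to -0.0871, -0.57 to -0.32, -0.33 to -0.0313, 0.0236 to 0.16, -0.0035 to 0.14, -0.15 to -0.0638 and -0.15 to 0.0163.

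Arrays that share a replicate number did not deviate together from their stage means (correlations of -0.153 to 0.049 for 12 pairs). The 18 pairs with different numbers (-0.112 to 0.153) are no independent reference. In a stage with 2 arrays the deviations are exact opposites, so these pairs mirror others. A replicate block gave 24 members in the F test, 0 higher and 1 lower in pregnancy, 15 and 6 in lactation and 5 and 15 in involution.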

Other observations

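Among 17 genes for protein import and folding in mitochondria, all tested, 1 was higher (21.6% of all probe sets) and 7 were lower (19.7%) in lactation than in pregnancy, with a median change of -0.12. Tomm40, the pore of the outer membrane, gave 141, 100.2 and 103 at puberty, 109 and 92 in pregnancy, 15.8 and 22.7 in lactation and 18.3 and 32.9 in involution. With 1 lactation array set to the floor of 20, it fell at least 4.71-fold in lactation (log2 change -2.23 ± 0.31 (SE), adjusted p = 0.000765) and had a change of 0.27 ± 0.31 in involution that did not pass (adjusted p = 0.505). Timm8b, a small chaperone of the intermembrane space, gave 169.9, 199 and 177 at puberty, 222 and 184 in pregnancy, 493 and 365 in lactation and 229 and 191 in involution and was the gene that rose (log2 change 1.07 ± 0.20 (SE), adjusted p = 0.00293). Hspe1, the cofactor of the matrix chaperonin, gave 406, 459 and 442 at puberty, 547 and 531 in pregnancy, 293 and 324 in lactation and 477 and 449 in involution and fell 1.75-fold (log2 change -0.81 ± 0.13 (SE), adjusted p = 0.00146). The calls of these 3 genes in lactation held in all 22 alternatives run. That of Timm8a1 held in the 21 in which it was tested. Those of Timm17a and Timm44 were lost without either pregnancy or either lactation array, that of Timm17a also without either involution array (adjusted p up to 0.185 and 0.12), that of Tomm70a without pregnancy replicate 1 (0.0522) and that of Timm9 with a floor of 50.

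Of 10 tested regulators of mitochondrial biogenesis, 0 were higher (21.6% of all probe sets) and 1 was lower (19.7%) in lactation. Gabpb1, the partner of the ETS factor GABPA, gave 60.2, 85.7 and 73.2 at puberty, 99.4 and 84.5 in pregnancy, 44.4 and 37 in lactation and 91.2 and 64.4 in involution and fell 2.26-fold (log2 change -1.18 ± 0.28 (SE), adjusted p = 0.00966), with adjusted p up to 0.0671 when pregnancy replicate 1 or lactation replicate 2 was left out. Nfe2l2, a regulator of the response to oxidants, gave 233, 235 and 233 at puberty, 237 and 244 in pregnancy, 259 and 262 in lactation and 393 and 337 in involution and rose 1.40-fold in involution (log2 change 0.48 ± 0.13 (SE), adjusted p = 0.0178). Yy1 gave 162, 187 and 171 at puberty, 199 and 221 in pregnancy, 211 and 176 in lactation and 247 and 271 in involution and passed the F test (adjusted p = 0.0455) but no single step. Ppargc1a and Tfam were too low to be tested.

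Of 3 genes for uncoupling or inhibition, Atpif1, the inhibitor of ATP synthase, gave 486, 447 and 352 at puberty, 963 and 1214 in pregnancy, 424 and 508 in lactation and 700.4 and 696 in involution. It rose 2.55-fold in pregnancy (log2 change 1.35 ± 0.17 (SE), adjusted p = 0.00245) and fell 2.33-fold in lactation (log2 change -1.22 ± 0.19 (SE), adjusted p = 0.00138), the pregnancy arrays lying above all others. Ucp3, a mitochondrial carrier known from muscle, gave 104, 80.8 and 146 at puberty, 61.7 and 29.9 in pregnancy, 619.8 and 321 in lactation and 101 and 96.9 in involution, a 10.38-fold rise in lactation (log2 change 3.38 ± 0.43 (SE), adjusted p = 0.000509). Ucp1, the uncoupling protein of brown fat, gave 643, 106 and 33.1 at puberty, 54 and 15.3 in pregnancy, 14.5 and 8.16 in lactation and 17.1 and 19 in involution, with the first puberty array apart from the others, and passed no test.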
